A study of Mus musculus with 2 samples.

Results

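Kit and Sca-1 are the surface proteins that define the LSK fraction of mouse bone marrow, which is lineage-negative, Sca-1-positive and c-Kit-positive. Both were read in the same single cells as RNA and as an antibody tag. The genes Kit (ENSMUSG00000005672) and Ly6a (ENSMUSG00000075602) and the tags against CD117, the protein of Kit, and Ly-6A/E, the protein of Ly6a, were picked by name. They are 2 of 32285 genes and 2 of 126 surface tags. Ly-6A and Ly-6E are here names for 2 alleles of the Ly6a product, called Sca-1 below, and not the neighbouring gene Ly6e. On GRCm38.p6 (mm10), as annotated by RefSeq, Kit lies on chromosome 5 from 75574987 to 75656722 and Ly6a on chromosome 15 from 74994877 to 74998031.

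The cells came from aged mice of 2 groups. Dosing began at about 6 months of age in both and went on for 13 months, daily on 7 days of each 4 weeks. One group was given the iron chelator deferoxamine at 50 mg/kg and the other the vehicle, HBSS. Strain, sex and number of mice: not given in the sources used here. Each group was represented by 1 pool of sorted LSK cells, told apart by a hashtag antibody, so no difference between the groups could be tested across animals. Intervals in brackets are 95% intervals for counting error alone.

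Kit is a receptor tyrosine kinase for stem cell factor, the product of Kitl, and signals through Src-family kinases, PI3 kinase and the Ras pathway. It is kept at high levels on haematopoietic stem cells (HSCs), multipotent progenitors (MPPs) and mast cells and is lost as most lineages mature. Sca-1 is a small protein of the Ly6 family, held in the membrane by a glycosylphosphatidylinositol (GPI) anchor, and its gene is known to respond to interferon. The sort itself used antibodies against Sca-1 and c-Kit, the same proteins that the tags read. Cells low for either protein were therefore cut off before measurement, and whether sort and tag antibodies competed for binding was not tested.

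The 2 pools were close in size and depth. After filters on genes per cell and mitochondrial share, 3969 of 4026 control barcodes and 3998 of 4037 chelator barcodes were kept, and 0 barcodes occurred in both pools. The median cell held 13705 gene UMIs (unique molecular identifiers, 1 per captured molecule) in the control pool and 14455.5 in the chelator pool. The median number of surface-tag UMIs was 3041 and 3448.5, and that of the 9 isotype control tags together 11 and 13. Cells with Xist made up 42.1% of the control cells with a readable sex and 26.1% of the chelator cells. The sexes were thus mixed unequally, and values within each sex are given beside the pool comparisons. Summed marker levels of other cell types were 89.7 and 45.4 CPM (UMIs per 1000000 gene UMIs of the pool) for mast cells and basophils, 443 and 353 for B cells, 219 and 212 for T, NK and innate lymphoid cells, 12.2 and 12.9 for mature myeloid cells, 238 and 251 for endothelium and 17.0 and 16.8 for stroma. Mcpt4 and the stromal genes Col3a1 and Lum were at 0 in both pools.

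Kit was among the more abundant RNAs of these cells. It gave 18456 UMIs in the control pool and 19924 in the chelator pool, ranking 370 of 22712 genes with a UMI. The median cell held 4 Kit UMIs in each pool, with quartiles of 2 and 6 in the control and 2 and 7 in the chelator pool. Ly6a gave 9617 and 9199 UMIs and ranked 935. Its median was 1 UMI per cell in each pool, with quartiles of 0 and 3. Most cells thus held few Ly6a molecules, and single-cell values of either gene carry much counting error.

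The 2 tags differed far more in size than the 2 RNAs. CD117 took 27.2% of all surface-tag UMIs over both pools, second of 126 tags after CD49f with 27.4%. The median cell held 845 CD117 UMIs in the control pool and 900 in the chelator pool, and 0 cells were without one. The Sca-1 tag took 0.313% and ranked 47. Its medians were 6 and 7 UMIs, and 168 control and 129 chelator cells had none. The Sca-1 medians lay below those of the 9 isotype controls summed, 11 and 13 UMIs, and the CD117 medians far above them. Taken singly over both pools, the isotype control tags had medians of 0 to 2 UMIs, against 6 for the Sca-1 tag. The antibodies differ in binding and labelling, and CD117 was added to the universal panel, so tag counts do not compare the amounts of the 2 proteins.

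**Figure D1:**
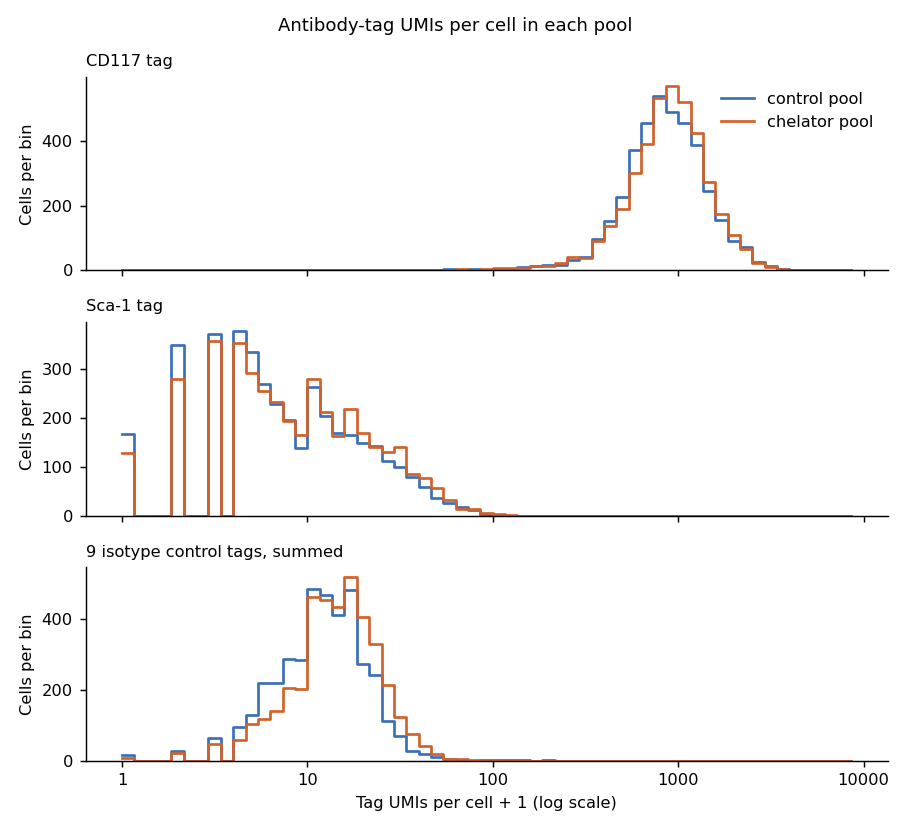
Cells per bin against tag UMIs per cell plus 1 (log axis) for the CD117 tag, the Sca-1 tag and the 9 isotype control tags summed, in the control and chelator pools. CD117 forms a single peak around the medians of 845 and 900 UMIs, whereas Sca-1 spreads from 0 UMIs to 105 in the control and 124 in the chelator pool.

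The question of the study, how prolonged iron chelation acts on ageing stem cells, was put to each readout by the ratio of chelator to control. Kit RNA was 292 CPM in the control pool (288 to 296) and 300 CPM in the chelator pool (295 to 304). The log2 ratio was 0.04 (0.01 to 0.07), and 52.5% of the 9840 genes with 1000 or more UMIs lay at least as far from 0. Kit was therefore as near to equal as the middle of all genes. Ly6a RNA was 152 CPM in the control and 138 CPM in the chelator pool, a log2 ratio of -0.14 (-0.18 to -0.10), and 8.09% of genes lay at least as far out.

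The lower Ly6a level was not seen within each sex. Among Xist-positive cells it was 154 CPM in the control and 165 in the chelator pool, and among cells with Y-linked transcripts 126 and 124. Cells placed in neither sex nor among those with both kinds of transcript, which can still hold 1 Xist UMI, held 257 and 169 CPM. Without the immunoglobulin-rich cells described below they held 203 and 169 CPM. Leaving those out, Ly6a RNA was 149 and 152 CPM in Xist-positive cells and 124 and 122 in cells with Y-linked transcripts. Kit RNA was 256 and 272 CPM in Xist-positive cells and 318 and 312 in cells with Y-linked transcripts. In both pools Kit was thus higher and Ly6a lower in the cells with Y-linked transcripts.

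A few cells rich in immunoglobulin RNA made up a larger share of the Ly6a RNA than of the cells. Cells in which immunoglobulin genes and Jchain, which links antibody chains, made up 5% or more of gene UMIs numbered 10 in the control pool and 5 in the chelator pool. They held 7.19% and 3.38% of all Ly6a UMIs, with up to 289 and 201 in 1 cell against at most 44 and 37 in any other cell. Their median Sca-1 tag was 35.5 and 27 UMIs, and their median CD117 tag 104.5 and 210. Kit RNA was at 0 in 7 of the 10 and in 2 of the 5. By these medians the cells were high in the Sca-1 tag and low in the CD117 tag, with exceptions. The 1 such control cell in the gate of MPP1 progenitors and the 1 in that of MPP2 held 4 Kit UMIs each and 881 and 1178 CD117 UMIs, and the 1 in chelator MPP2 held 3 Sca-1 UMIs. Without them the Ly6a log2 ratio was -0.08 (-0.13 to -0.04). They were singled out after the Ly6a values had been seen, and what kind of cell they are was not tested.

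CD117 tag levels depended on the scale. Per 10000 surface-tag UMIs the tag gave 2839 in the control and 2623 in the chelator pool, a log2 ratio of -0.11, and it was also lower within both sexes, by -0.14 among Xist-positive cells and -0.11 among cells with Y-linked transcripts. Counted per cell it was 0.05 higher. On that scale 117 of 126 tags were higher in the chelator pool, with a median of 0.16, so the chelator cells carried more tag UMIs in general. The Sca-1 tag gave 31.2 and 31.5 per 10000, a log2 ratio of 0.01 (-0.01 to 0.03), and per cell it was 0.17 higher. Within the sexes its ratio was -0.04 among Xist-positive cells and 0.15 among cells with Y-linked transcripts.

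Cells were then placed in 5 gates by the CD135, CD48 and CD150 tags. The CD117 and Sca-1 tags enter these gates only through the cell's mean over all 126 surface tags, which the scaling subtracts. How far the total of tag UMIs moves a cell between gates was not tested. CD150-positive cells without CD48 and CD135 formed the HSC gate (1161 control and 1310 chelator cells), and cells negative for all 3 the MPP1 gate (548 and 562). CD48-positive cells without CD135 formed MPP2 when CD150-positive (92 and 100) and MPP3 when negative (502 and 611). CD135-positive, CD150-negative cells formed MPP4 (1510 and 1293), the lymphoid-primed progenitors. Of all cells, 22.1% lay within 0.25 of the CD135 threshold, which all 5 gates use, 9.80% within that distance of the CD48 and 5.32% of the CD150 threshold.

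Per gene UMIs, Kit RNA was highest in the HSC and MPP1 gates and similar in the other 3. In the HSC gate it was 378 CPM in the control and 376 in the chelator pool. In MPP1 it was 337 and 372, and the counting intervals of HSC and MPP1 overlapped in the chelator pool alone. MPP2 held 238 and 246 CPM, MPP3 244 and 242, and MPP4 246 and 246, and the intervals of these 3 overlapped in each pool. From the MPP4 to the HSC gate the log2 difference was 0.62 (0.57 to 0.67) in the control and 0.61 (0.56 to 0.66) in the chelator pool. Within the sexes it was 0.54 or more in each pool. Per cell the order was another one, since gene UMIs differed among gates. The mean cell held 5.49 Kit UMIs in MPP2, 5.38 in the HSC gate, 4.81 in MPP3, 4.39 in MPP1 and 4.11 in MPP4 of the control pool. In the chelator pool it held 5.65 in MPP2, 5.56 in the HSC gate, 5.03 in MPP1, 4.76 in MPP3 and 4.44 in MPP4. Between pools, Kit RNA in MPP1 had a chelator to control log2 ratio of -0.13 (-0.29 to 0.03) in Xist-positive cells and 0.26 (0.16 to 0.36) in cells with Y-linked transcripts.

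Whether the CD117 tag followed the RNA depended on the scale. As a share of tag UMIs it was lowest in the HSC gate, with 2509 per 10000 in the control and 2295 in the chelator pool, against 3089 and 2873 in MPP4 and 3189 and 3006 in MPP3. The HSC over MPP4 log2 ratio was -0.30 in the control and -0.32 in the chelator pool. Per cell the HSC gate lay above MPP4, with medians of 1005 and 1027 UMIs against 724.5 and 753. Mean CD117 UMIs per cell put the gates in the same order as mean Kit UMIs per cell in each pool. They were 1249 in MPP2, 1139 in the HSC gate, 965 in MPP3, 914 in MPP1 and 787 in MPP4 of the control pool. In the chelator pool they were 1179.7 in MPP2, 1153 in the HSC gate, 995 in MPP1, 968 in MPP3 and 789.7 in MPP4. The richest chelator MPP1 cell held 13402, and by medians MPP3 (924) lay above MPP1 (914) in that pool. Not all neighbours in the Kit order were apart. Per cell, the Kit RNA log2 ratio of MPP2 over HSC was 0.03 (-0.10 to 0.16) in the control and 0.02 (-0.10 to 0.15) in the chelator pool. HSC-gate cells held more tag UMIs of all kinds, with medians of 4314 and 4774.5 against 2365.5 and 2627 in MPP4. Isotype controls were also higher in them, at 16 and 19 UMIs against 8 and 10. Scaled to the isotype controls, CD117 was again lower in the HSC gate, by log2 ratios of -0.32 and -0.36. A statement that HSC-gate cells carry more or less CD117 than MPP4 cells therefore depends on the scale.

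Ly6a RNA was highest in the HSC and MPP1 gates and lowest in MPP2. It was 200 CPM in the control and 188 in the chelator pool in the HSC gate, and 237 and 190 in MPP1. MPP4 held 112 and 110 CPM, and MPP2 65.6 and 42.6. In MPP3 it was 138 and 96.0 CPM, but 42.3% and 22.8% of those UMIs came from 8 control and 3 chelator cells rich in immunoglobulin RNA. Without such cells MPP3 held 81.6 and 74.8 CPM, below MPP4 in both pools. The chelator to control log2 ratio in MPP3 then went from -0.52 (-0.64 to -0.41) to -0.13 (-0.27 to 0.02). In MPP1 it was -0.32 (-0.42 to -0.22) with and -0.24 (-0.35 to -0.14) without the 1 such cell there. Xist-positive MPP1 cells held 266 CPM in the control and 190 in the chelator pool, a log2 ratio of -0.48 (-0.68 to -0.29). MPP1 cells with Y-linked transcripts held 189 and 177 CPM. With all cells kept, the ratio in MPP3 was 0.38 (0.19 to 0.56) in Xist-positive cells and -0.13 (-0.32 to 0.06) in cells with Y-linked transcripts. Among the Xist-positive cells, a single immunoglobulin-rich cell held 201 of 441 Ly6a UMIs in the chelator and 74 of 524 in the control pool. The MPP3 ratio within each sex without such cells was not tested.

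The Sca-1 tag shared the low MPP2 and MPP3 levels. It was 35.8 and 35.5 per 10000 in the HSC gate, 41.5 and 38.6 in MPP1, 27.1 and 29.2 in MPP4, 19.7 and 18.6 in MPP3 and 18.2 and 15.9 in MPP2. Median UMIs per cell were 12 and 13 in the HSC gate, 8.5 and 9 in MPP1, 5 and 6 in MPP4, 4 and 4 in MPP3 and 3 and 3 in MPP2. Per surface-tag UMIs the tag, with all cells kept, thus put the gates in the same order as the RNA without immunoglobulin-rich cells. Some neighbours in that order were not apart. In the chelator pool the Ly6a RNA log2 ratio of HSC over MPP1 was -0.02 (-0.11 to 0.07). In the control pool the tag intervals of MPP3 (19.0 to 20.4) and MPP2 (16.9 to 19.6) overlapped. The HSC over MPP4 log2 ratio was 0.83 (0.76 to 0.91) and 0.77 (0.69 to 0.84) for the RNA and 0.40 (0.37 to 0.44) and 0.28 (0.25 to 0.31) for the tag. Between pools, the tag in the HSC gate had a chelator to control log2 ratio of -0.23 (-0.28 to -0.18) in Xist-positive cells and 0.20 (0.16 to 0.24) in cells with Y-linked transcripts.

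**Figure D2:**
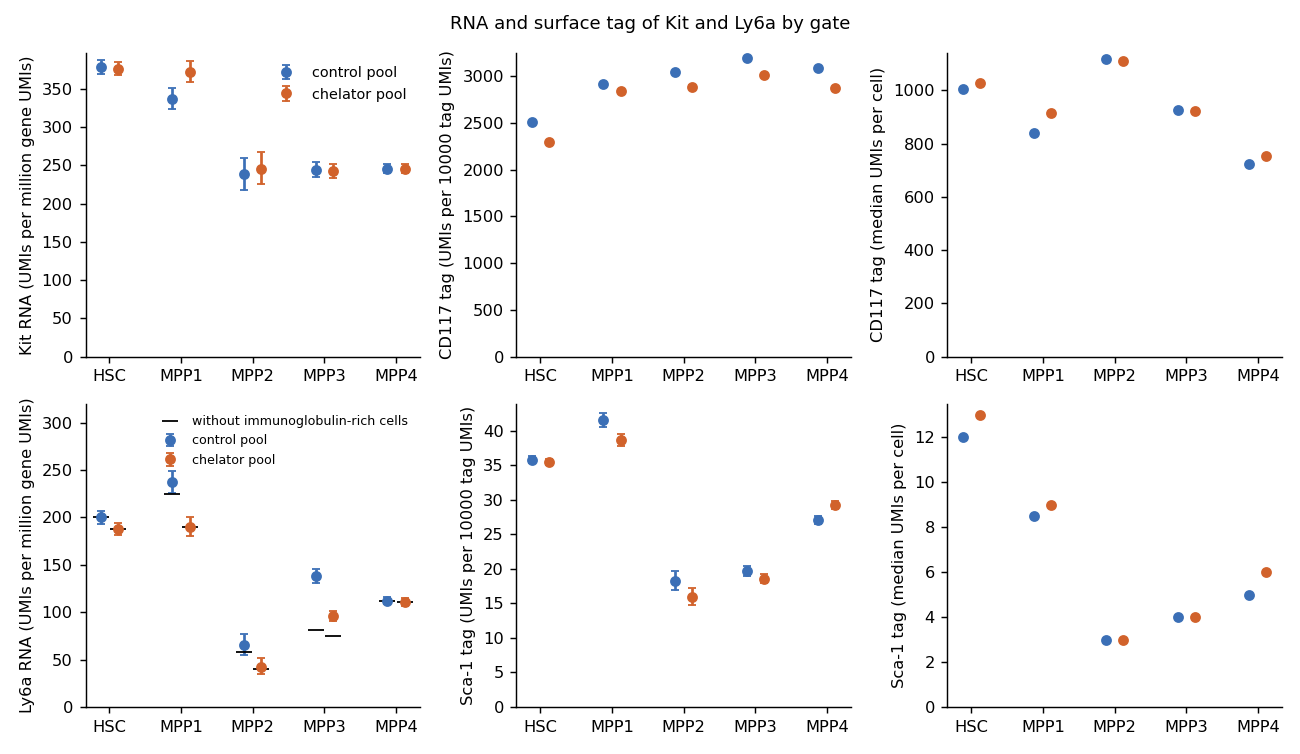
Kit RNA, CD117 tag, Ly6a RNA and Sca-1 tag in the 5 gates (x axes) of the control and chelator pools, as CPM, per 10000 surface-tag UMIs and as median UMIs per cell. Points are pools and bars 95% counting intervals (none for medians). Black dashes give Ly6a RNA without immunoglobulin-rich cells, which in MPP3 are 81.6 and 74.8.

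The RNAs that followed the members over the gates were found by Pearson correlation of log2 CPM over 5 gates in 2 pools, among 3458 genes of 50 CPM or more. These 10 points share libraries and gates, so r is a description. Among the nearest to Kit were Mecom, a transcription factor of stem cells (r = 0.99), Ftl1, the ferritin light chain that stores iron (0.99), Krt18, a keratin (0.99), and Tm2d3 (0.99). Mecom was 331 and 324 CPM in the HSC gate and 125 and 118 in MPP4, and Ftl1 192 and 189 against 139 and 137. Nearest to Ly6a were Lst1 (0.98), Ccdc50 (0.98), the glycolytic enzyme Aldoa (0.97), Saraf, a regulator of calcium entry (0.96), and Fam92a (0.96). Kit and Ly6a themselves had an r of 0.78 with each other.

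Within cells, RNA and tag went together far more for Sca-1 than for Kit. The Spearman rho between Ly6a UMIs per 10000 gene UMIs and the centred log ratio of the Sca-1 tag was 0.57 over 3969 control cells and 0.59 over 3998 chelator cells. For Kit and CD117 it was 0.18 and 0.19. Cells share a library, and both readouts of a cell share its depth, so these values carry no p. With each cell thinned to 5000 gene UMIs, rho was 0.49 and 0.48 for Sca-1 and 0.12 and 0.14 for Kit. Among the 36 tags of the panel that name the product of 1 gene with 1000 or more UMIs in each pool, Ly6a ranked 4 in the control and 3 in the chelator pool. Kit ranked 20 and 19, near the median rho of 0.21 and 0.19. Cd48, which marks the step out of the HSC gate, led with 0.72 and 0.73. The weak relation for Kit was thus the usual one in this panel although Kit, with 18456 and 19924 RNA UMIs, was more deeply read than Cd48, with 4486 and 4753.

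**Figure D3:**
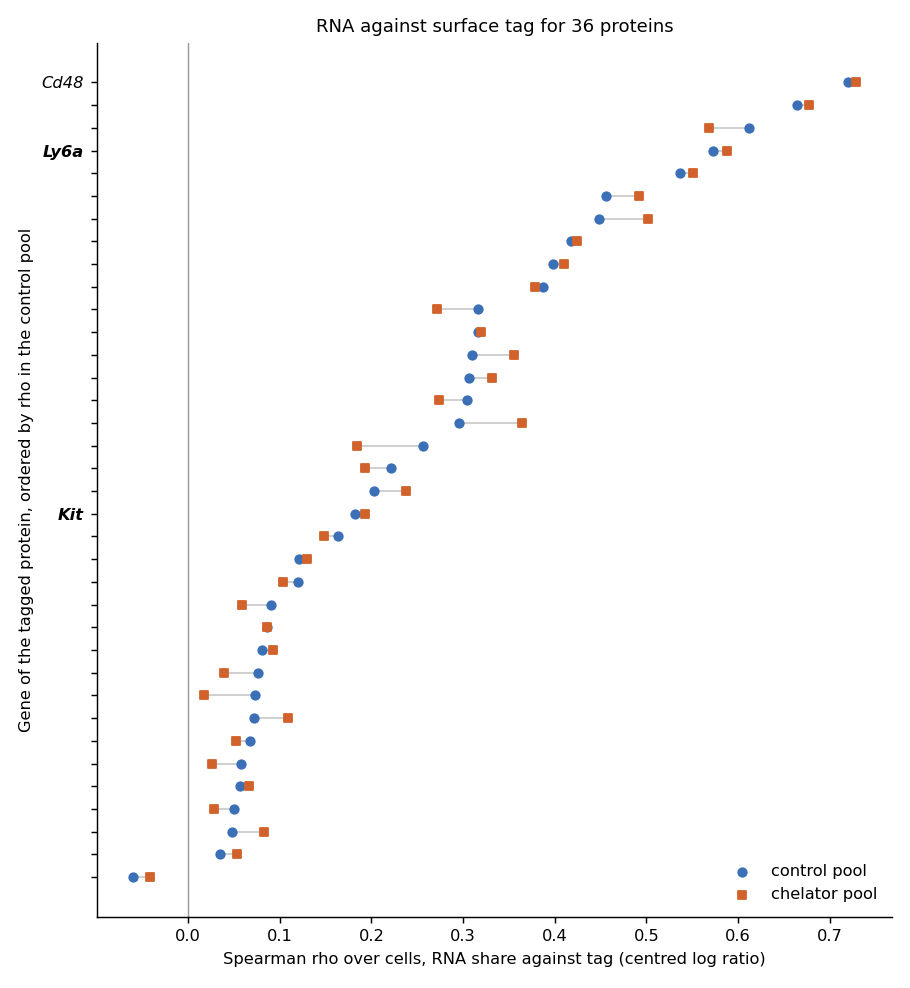
Spearman rho over cells between RNA share and tag (centred log ratio, x axis) for 36 proteins, ordered on the y axis by their value in the control pool with Cd48, Ly6a and Kit named, in the control pool (circles) and chelator pool (squares). Ly6a lies at 0.57 and 0.59, Kit at 0.18 and 0.19.

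The strength differed among gates. For Ly6a and the Sca-1 tag rho was 0.67 and 0.63 in the HSC gate, 0.54 and 0.60 in MPP1, 0.44 and 0.49 in MPP4, 0.40 and 0.39 in MPP3 and 0.31 and 0.38 in MPP2. For Kit and CD117 it was 0.27 and 0.20 in the HSC gate, 0.26 and 0.31 in MPP4, 0.20 and 0.19 in MPP2, 0.18 and 0.18 in MPP3 and 0.08 and 0.16 in MPP1. In each of the 5 gates and both pools Ly6a thus had the higher value. Gates low in Sca-1 also had fewer tag UMIs per cell, which limits rho, and how far it does was not tested.

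Quintiles of cells ordered by each tag show the size of these relations. Along CD117, Kit RNA went from 222 CPM in the lowest to 332 in the highest quintile of control cells, and from 219 to 346 in chelator cells. Along the Sca-1 tag, Ly6a RNA went from 34.5 to 454 CPM and from 35.1 to 360. For Ly6a the counting intervals of the pools overlapped in quintiles 1, 3 and 4. In quintile 2 Ly6a RNA was 69.5 CPM (65.1 to 74.0) in control and 59.8 (55.8 to 63.9) in chelator cells. The gap was widest in the highest quintile. The part in it of the immunoglobulin-rich cells, whose median Sca-1 tag was 35.5 and 27 UMIs, was not tested. Median gene UMIs moved with both orders, up along CD117 (12173 to 15713 in the control pool) and down along Sca-1 (17262.5 to 11671).

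The members also crossed. Ly6a RNA was lower where the CD117 tag was higher, from 330 to 61.3 CPM over the quintiles of control cells and from 235 to 63.4 in chelator cells, with rho of -0.32 and -0.28. The immunoglobulin-rich cells, with median CD117 tags of 104.5 and 210 UMIs, held 691 and 311 Ly6a UMIs and were kept here. Their part in the lowest quintile was not tested. Kit RNA along the Sca-1 tag went from 261 to 313 CPM and from 264 to 336, with rho of 0.06 and 0.10. The 2 tags had a rho of -0.37 and -0.34 as centred log ratios but of -0.04 and 0.04 as plain UMIs. Over all cells the negative value was thus seen on the scale that sets each tag against the others, and not in plain UMIs. In the HSC gate it was -0.54 and -0.48 as centred log ratios and -0.33 and -0.22 as plain UMIs. The RNAs of Kit and Ly6a had a rho of -0.01 and 0.06.

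**Figure D4:**
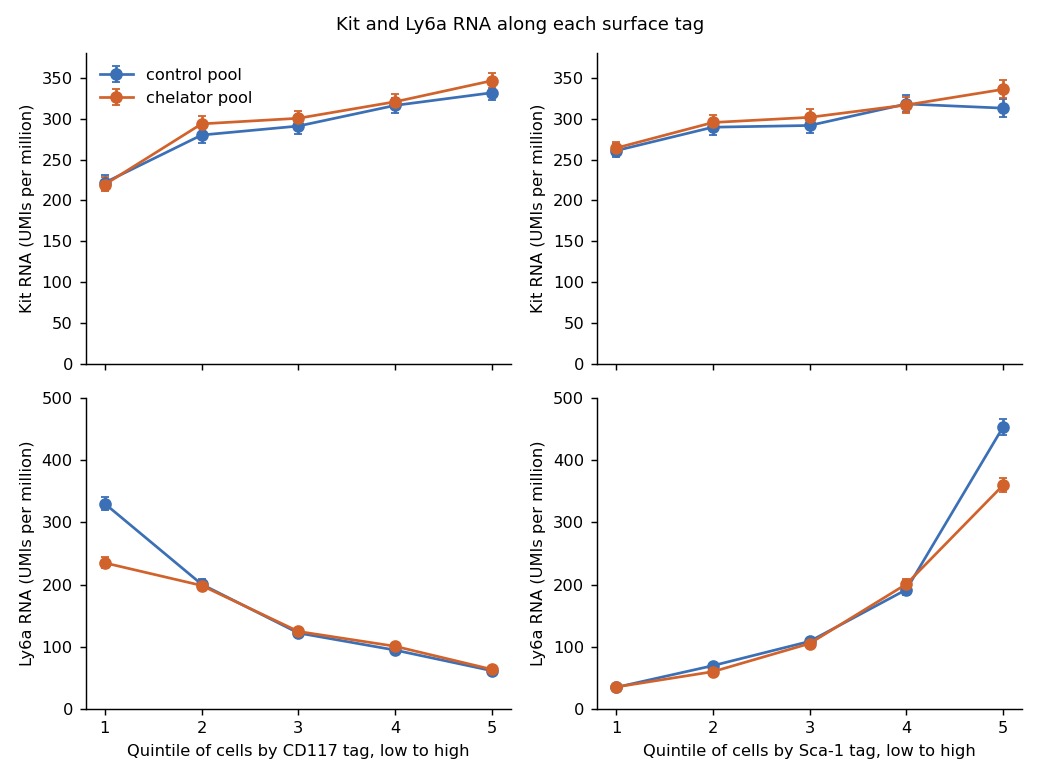
Kit RNA (top) and Ly6a RNA (bottom) in CPM for cells in quintiles by the CD117 tag (left) and Sca-1 tag (right), low to high, in both pools, with 95% counting intervals. Ly6a falls along CD117 from 330 to 61.3 in control cells and climbs along Sca-1 from 34.5 to 454, with immunoglobulin-rich cells kept.

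What else differed between cells of high and low CD117 was asked within the HSC gate, between the upper and lower tertile of cells by the tag (387 cells each in the control and 436 in the chelator pool). A gene is called when its CPM ratio passed 1.5-fold in the same direction in both pools. Of 7586 genes with 200 or more UMIs, 347 were higher (4.57%) and 182 lower (2.4%) in the CD117-high tertile. Median CD117 UMIs were 654 and 718.5 in the lower and 1552 and 1484.5 in the upper tertile. Kit RNA was 302 CPM in the lower and 435 in the upper tertile of control cells, and 323 and 409 in chelator cells, log2 differences of 0.53 and 0.34 that stayed under the 1.5-fold rule. Ly6a RNA was 362 and 78.7 CPM in control cells and 292 and 99.6 in chelator cells, log2 differences of -2.20 and -1.55.

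CD117-high cells of the HSC gate were richer in RNAs of the cell cycle. In gene lists the same call was made from 50 UMIs on, which 5.24% of 10923 genes passed as higher and 3.97% as lower, and the median over all of them was 0.07 in the control and 0.08 in the chelator pool. All 24 measured genes of the G2 and M phases were higher, with median log2 differences of 2.24 and 2.63. Among them were Mki67 (2.33 and 3.10) and Top2a, which untangles DNA (2.19 and 2.65). Of 25 S-phase genes 24 were higher, with medians of 1.51 and 1.02, and Mcm3, a subunit of the replicative helicase, was 1.51 and 0.93 higher. Of the 10 genes with the largest differences, the mitotic genes Aspm (2.90 and 3.23), Cenpf (2.76 and 3.16) and Prc1 (2.73 and 2.83) are examples. Depth moved the same way, from a median of 11760 to 14877 gene UMIs in control cells and from 11925.5 to 15156.5 in chelator cells.

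CD117-low cells were richer in Cd74 and in some interferon and stem cell RNAs. Cd74, the invariant chain of class II molecules, was 553 CPM in the lower and 83.9 in the upper tertile of control cells, and 360 and 90.1 in chelator cells. The summed level of the 10 B cell markers, Cd74 among them, was 592 and 124 CPM in control and 393 and 128 in chelator cells, and its part in the other differences was not tested. Of 33 interferon-response genes 11 were lower in the CD117-high tertile and 0 higher, with medians of -0.64 and -0.47. Ifitm3, which blocks virus entry, was among them (-0.76 and -0.63), whereas Psmb9, an immunoproteasome subunit, differed by 0.05 and 0.20. Of 20 stem cell genes 5 were lower, with medians of -0.38 and -0.34, and the long-term HSC gene Sult1a1 was lower by -1.71 and -1.70. Hlf, a transcription factor of stem cells, differed by -0.53 and -0.31 and did not pass. Of 15 immediate-early and heat shock genes 6 were lower, among them Fos (-1.41 and -0.80). Other genes with the largest differences were Plk2, a stress-responsive kinase (-1.88 and -1.81), Xdh, a purine oxidase (-2.74 and -1.70), Ncam2, an adhesion molecule (-1.71 and -1.70), and Ramp2, a receptor partner (-1.43 and -2.13). Xist made up 45.3% of sexed cells in the lower and 25.8% in the upper tertile of the control pool, and 28.1% and 24.3% in the chelator pool. Within cells with Xist 154 of 2670 genes passed and within cells with Y-linked transcripts 257 of 4988, over fewer cells and genes tested.

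Tertiles by the Sca-1 tag put the same groups of genes the other way round. Median Sca-1 UMIs were 4 and 4 in the lower and 29 and 31 in the upper tertile. Of 7608 genes 328 were higher (4.31%) and 598 lower (7.86%). Ly6a RNA was 49.7 CPM in the lower and 445 in the upper tertile of control cells, and 56.1 and 382 in chelator cells. Kit RNA was 387 and 346 CPM in control cells and 369 and 378 in chelator cells, so it differed little and in opposite directions. The tag split and the CD117 split use the same cells and tags that are scaled against each other, so neither is independent support for the other.

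Interferon and class II genes led the RNAs that were higher with Sca-1. In lists, 6.72% of 10927 genes passed as higher and 8.39% as lower, with all-gene medians of -0.07 and -0.06. Of 33 interferon-response genes 20 were higher and 0 lower, with medians of 0.79 and 0.72. Ifitm3 was 0.76 and 0.69 higher, while Ly6e, a Ly6 gene that also responds to interferon, differed by 0.58 and 0.49 and did not pass. Iigp1, an interferon-inducible GTPase, went from 26.0 to 129 CPM in control and from 24.9 to 112 in chelator cells. Of related GTPases, Gbp6 was higher by 2.76 and 2.51, and Tgtp1 went from 40.98 to 175 CPM and from 34.9 to 140. Cd74 went from 42.6 to 660 CPM and from 41.1 to 488, and the class II genes H2-Aa (2.34 and 2.24) and H2-Eb1 (2.31 and 2.05) were higher with it. Cd74 is also in the list of B cell markers, whose summed level was 78.3 and 75.8 CPM in the lower and 698 and 525 in the upper tertile. Of the other B cell genes, Cd79b, part of the B cell receptor, differed by 0.09 and 0.12.

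Stem cell RNAs were higher and cycle and megakaryocyte RNAs lower with Sca-1. Of 20 stem cell genes 8 were higher and 1 lower, with medians of 0.42 and 0.58, and Hlf was among the higher (0.88 and 0.97). Of 15 immediate-early and heat shock genes 8 were higher, among them Fos (1.43 and 1.05), and 1 was lower, the chaperone Hsp90aa1 (-0.74 and -0.65). All 24 measured G2 and M phase genes (medians -2.84 and -2.94) and 24 of 25 S-phase genes (-1.64 and -1.82) were lower. Of 16 megakaryocyte and platelet genes 9 were lower, with medians of -0.99 and -1.03. Pf4, a platelet chemokine, went from 498 to 25.4 CPM in control and from 549 to 22.2 in chelator cells, and Gp1bb, of the von Willebrand factor receptor, differed by -3.23 and -3.45. Gata1, the factor of the erythroid and megakaryocyte lineages, was lower by -4.57 and -5.66. Of 6 measured endothelial markers 3 were higher, Emcn (0.91 and 0.78) and Cldn5 (1.56 and 2.30) among them, and HSCs are known to express several genes of that list. The share of sexed cells with Xist was 25.5% in the lower and 53.0% in the upper tertile of the control pool, and 20.2% and 35.3% in the chelator pool. Within cells with Xist 360 of 2663 genes passed and within cells with Y-linked transcripts 509 of 5049.

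**Figure D5:**
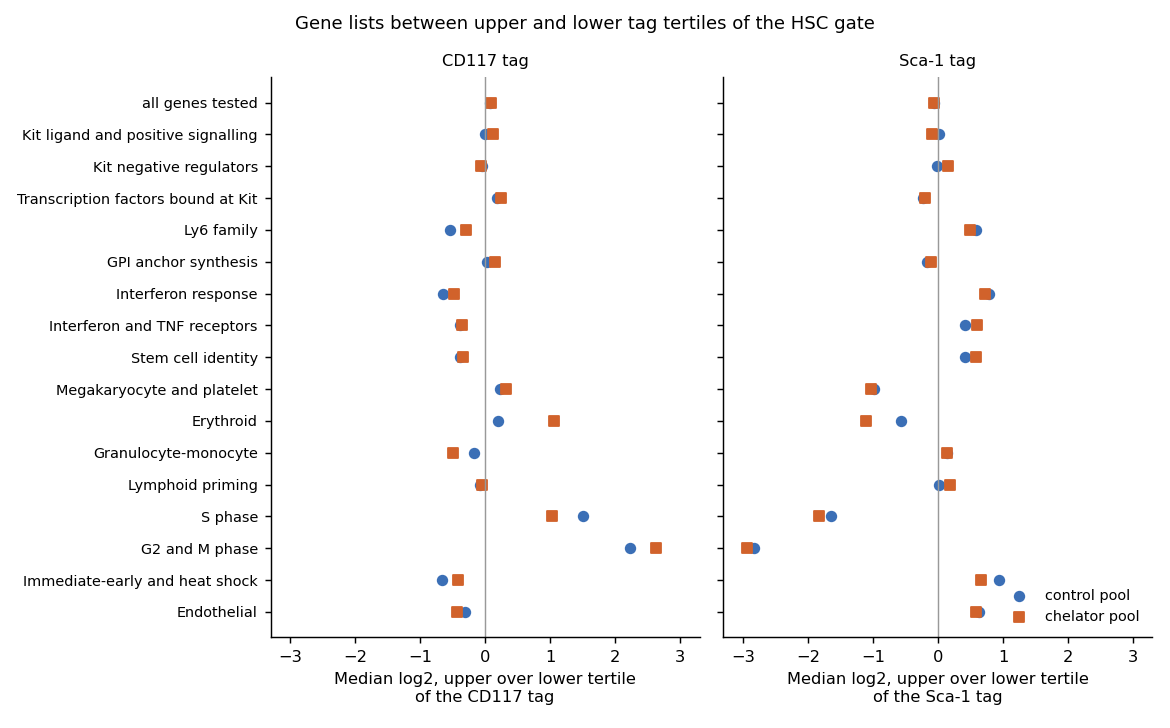
Median log2 ratio of gene lists (y axis) between the upper and lower tertile of HSC-gate cells by the CD117 tag (left) and the Sca-1 tag (right), in the control (circles) and chelator (squares) pools. G2 and M phase genes lie at 2.24 and 2.63 with CD117 and at -2.84 and -2.94 with Sca-1, and interferon genes at -0.64 and -0.47 and at 0.79 and 0.72.

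Fewer genes passed among cells with few cycle RNAs. In the HSC gate 528 control cells (45.5%) and 540 chelator cells (41.2%) had fewer than 3 UMIs of the G2 and M phase list. Such cells were also shallower, with median gene UMIs of 11074 and 11152 against 14550 and 15396.5. They held more Ly6a RNA, 326 and 282 CPM against 131 and 145. Kit RNA differed less, at 389 and 410 CPM in them against 372 and 360. Among them 14 genes of 3070 passed between tertiles by CD117 (8 higher, 0.261%, and 6 lower, 0.195%), in place of 529 among all cells of the gate. Fewer genes were deep enough to be tested in these smaller tertiles of 176 and 180 cells. Kit was now among those higher, from 290 to 500 CPM in control and from 298 to 498 in chelator cells, as was Cdk6, a kinase of the G1 phase (1.07 and 1.06). Ly6a was again lower, by -1.50 and -0.82, and Cd74 by -2.14 and -0.78.

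By Sca-1, 30 genes of 3133 passed among these cells (25 higher, 0.798%, and 5 lower, 0.16%), in place of 926. Cd74 went from 84.8 to 880 CPM in control and from 158 to 612 in chelator cells. Iigp1 went from 34.3 to 147 CPM and from 44.8 to 126. H2-Aa was also higher (2.37 and 1.72), and so was Ly6a, by 2.21 and 1.81. Cdk6 was lower by -0.96 and -1.51. Of 31 interferon-response genes 10 were higher at 50 UMIs, where 0.954% of 8382 genes passed as higher and 0.465% as lower, and 0 of 20 stem cell genes were called. By CD117, 3 of 31 interferon genes were lower, where 0.384% of 8340 genes passed as higher and 0.48% as lower. The genes named for these cells, and the cells themselves, were chosen after values had been seen.

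Genes of the Kit pathway changed little between CD117 tertiles. Of 34 measured members of the ligand and signalling list, 1 was higher in the CD117-high tertile of the HSC gate, the Src-family kinase Fyn (0.68 and 0.84), and 1 lower, Src (-1.04 and -1.04). Among the most abundant members were the small GTPases Rac2 (-0.02 and -0.05) and Rac1 (0.01 and -0.06) and the transcription factor Stat3 (-0.31 and -0.19). Kitl, the ligand, was near background with 16 and 35 UMIs in whole pools. Of 18 negative regulators 2 were lower, Socs1, an inhibitor of cytokine signalling that interferon induces (-1.19 and -0.89), and Spry1, an inhibitor of Ras signalling (-0.59 and -0.79). With Sca-1, 1 of the 34 signalling genes was higher and 2 lower, and 1 of the 18 regulators was higher and 2 lower. These counts lie near or below the share of all genes called, or rest on 1 or 2 genes.

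Of 15 transcription factors known to act at the Kit locus, few passed with CD117. In the HSC gate 2 were called higher, against 5.24% of all genes, Gata1 (2.13 and 2.05) and Myb (0.63 and 0.64), and 0 lower. Their medians were 0.18 and 0.24 against 0.07 and 0.08 over all genes, with 10 above and 5 below 0 in both pools. The abundant factors Lmo2 (-0.11 and -0.12), Meis1 (0.28 and 0.24), Runx1 (0.23 and 0.35) and Fli1 (0.18 and 0.34) did not pass. In MPP4 4 of 15 were higher, Gata1 (3.02 and 2.01), Gata2 (1.20 and 1.49), Tal1 (0.78 and 0.68) and Zfpm1, the cofactor of GATA proteins (1.02 and 0.98). The background there was 1.99% higher and 2.97% lower of 10916 genes. The part in these 4 differences of the few cells with Car1, and of mast cell and basophil RNAs, both described below, was not tested.

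The 250 bases upstream of the Kit start, chr5:75574737-75574986 on the plus strand of GRCm38.p6 (RefSeq), are shown because these factors bind GATA, E-box and RUNX motifs. Capitals mark the one match found, a GC box.
Kit promoter: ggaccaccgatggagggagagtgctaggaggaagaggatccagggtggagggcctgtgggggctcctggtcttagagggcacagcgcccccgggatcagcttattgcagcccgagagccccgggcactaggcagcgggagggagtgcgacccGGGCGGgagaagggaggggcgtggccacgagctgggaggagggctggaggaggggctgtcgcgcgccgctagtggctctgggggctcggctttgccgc
Its G and C content is 70.8%. On both strands GGGCGG matched 1 time and occurs in 32.7% of 32851 promoters of the same length. AGATAA, a motif of GATA factors found in 9.99% of promoters, CANNTG, the E-box (66.2%), and TGTGGT, a motif of RUNX factors (14.0%), had 0 matches, which says only that these letters are not in this window.

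Of the 5 measured genes of the Ly6 family, Ly6a alone was called in the HSC gate, lower with CD117 and higher with Sca-1. Its neighbour Ly6e, far more abundant at 1029 and 975 CPM in whole pools, differed by -0.41 and -0.28 with CD117 and by 0.58 and 0.49 with Sca-1. Plaur, the urokinase receptor, differed by -0.54 and -0.60 and by 0.95 and 0.52, and Cd59a, a complement inhibitor, by -0.24 and -0.30 and by 0.31 and 0.01. Genes of GPI anchor synthesis, which all of these proteins need, stayed near 0 with Sca-1 in the HSC gate, with medians of -0.18 and -0.11 and 1 of 25 lower. Dpm1, which makes the mannose donor, differed by 0.08 and -0.04.

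The same split by CD117 was made in the MPP4 gate. Tertiles by CD117 had medians of 483 and 471 UMIs below and 1019 and 1028 above. Of 8282 genes 108 were higher (1.3%) and 141 lower (1.7%). Kit RNA was 185 CPM in the lower and 294 in the upper tertile of control cells, and 172 and 304 in chelator cells, log2 differences of 0.67 and 0.82 that pass the rule. No cycle gene of the lists passed here. None of 25 for S phase (medians 0.02 and -0.07) and none of 24 for G2 and M (0.37 and 0.16) was called. Of the 24 for G2 and M, however, 22 lay above 0 in both pools and 0 below. In the control pool 78.9% of cells in the lower and 88.9% in the upper tertile held 3 or more UMIs of that list. For the chelator pool these shares were 84.2% and 91.2%.

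Lymphoid RNAs were lower in CD117-high MPP4 cells. Of 17 lymphoid priming genes 12 were lower and 0 higher, with medians of -1.35 and -1.31 against 0.05 and 0.03 over all genes. Dntt, the terminal transferase of lymphoid precursors, was lower by -2.59 and -2.40 and Flt3, the CD135 gene, by -1.14 and -1.04. Il7r, the interleukin-7 receptor, was 30.0 CPM in the lower and 0.664 in the upper tertile of control cells, and 35.5 and 0.736 in chelator cells. Lower too were Mpeg1, a pore-forming protein (-5.14 and -3.98), Lgals3, a galectin (-5.36 and -5.33), and Plbd1, a phospholipase-like protein of myeloid cells (-7.28 and -8.99), the last seen in 26 and 17 cells. Markers of other cell types moved with these genes. The summed B cell markers were 1188 CPM in the lower and 115 in the upper tertile of control cells, and 1133 and 103 in chelator cells. Most of that was Cd74, at 1134 and 74.5 CPM, and 1082 and 59.5. Among tags, CD11c, a marker of dendritic cells, was lower by -3.07 and -3.00, the class II tag I-A/I-E by -1.37 and -1.30 and CD86, a costimulatory ligand, by -1.09 and -1.02, picked after their values were seen. The part of such cells in the lymphoid and myeloid differences was not tested. Of the other sort protein, Ly6a, the RNA was 154 and 78.0 CPM in control and 143 and 78.3 in chelator cells.

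Higher in the CD117-high tertile of MPP4 were Dach1, a transcriptional cofactor (2.05 and 2.27), Pcdh7, a protocadherin (2.52 and 2.08), Apoe (1.77 and 1.79) and Tgfbr3, a TGF-beta co-receptor (1.74 and 2.08). Car1, a carbonic anhydrase of red cell precursors, was higher by 4.38 and 2.61 but came from 12 cells in each pool. One cell gave 28.2% of its UMIs in the control and 66.3% in the chelator pool. Of 5 measured mast cell and basophil genes, a list that includes Kit and Gata2, 4 were higher, among them the protease Cpa3 (1.18 and 3.42), and 1 lower. The summed level of that list without Kit and Gata2 was 36.2 and 13.1 CPM in the lower and 60.8 and 80.3 in the upper tertile. Their part in the Kit difference was not tested.

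With the Sca-1 tag, MPP4 cells showed stem cell and interferon RNAs higher and granulocyte-monocyte RNAs lower. Of 8296 genes 118 were higher (1.42%) and 53 lower (0.639%). Ly6a RNA was 50.4 and 222 CPM in control and 43.2 and 218 in chelator cells, and Kit RNA 236 and 256, and 228 and 267. In lists, with 3.07% of 10944 genes called higher and 1.16% lower, 8 of 16 stem cell genes were higher, with medians of 0.92 and 0.62. Hlf (0.97 and 0.92) and Mecom (0.96 and 0.87) were among them. Of 34 interferon-response genes 7 were higher, Ifitm3 by 0.69 and 0.68. Of 14 granulocyte-monocyte genes 8 were lower, with medians of -1.07 and -0.87, among them Mpo, the myeloperoxidase (-2.21 and -1.94), and Ctsg, a neutrophil protease (-2.01 and -2.11). Elane, the neutrophil elastase, was lower by -5.56 and -6.01, with 39.4% and 50.5% of its UMIs in 1 cell. Mast cell and basophil markers without Kit and Gata2 summed to 155 CPM in the lower and 15.0 in the upper tertile of control cells, and to 81.2 and 13.6 in chelator cells. Of 5 measured genes of the whole list 3 were lower, with medians of -2.30 and -1.85. B cell markers summed to 741 and 395 CPM, and to 754 and 376. Their part in the differences was not tested. Also higher were Nkx2-3, a homeobox factor (1.73 and 1.69), and Ltb, lymphotoxin beta (1.43 and 1.68).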

How the data were processed

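LSK cells of 2 conditions were stained, hashed, pooled and loaded on a 10x 5' kit, giving 1 RNA and 1 antibody-tag library. The authors deposited 1 matrix per condition, with UMI counts that are whole numbers and were not normalized. Cell Ranger 7.0.0, mm10 and Seurat 4.3.0 are named per the submitters' processing notes, and Cell Ranger 7.0.1 per the file headers. Annotation release, barcode filters and hashtag assignment: not given in the sources used here. In a check, the stronger hashtag matched the matrix in 4025 of 4026 control and 4037 of 4037 chelator barcodes.

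Kept cells had 500 genes or more and less than 10% mitochondrial UMIs (57 and 39 removed). No doublet caller was run, and cells with at least 2 Xist UMIs and 2 Y-linked UMIs (35 and 52) were left out as an alternative. Xist cells had at least 2 Xist UMIs and no Y-linked UMI, and Y cells at least 1 UMI over 4 Y-linked genes and no Xist. All remaining cells, those with a single Xist UMI among them, were placed in neither sex. RNA levels are UMI counts summed over cells and given per 1000000 gene UMIs (CPM), and tag levels per 10000 surface-tag UMIs, hashtags left out. Ratios carry exact conditional binomial 95% intervals and sums exact Poisson ones, which cover counting error only. With 1 pool per condition no p was computed, and cells were not used as replicates. Gates came from a 2-component Gaussian mixture of the centred log ratio of each tag over both pools.

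Members and gene lists (22) were chosen with earlier results of these data known, and the map of tags to genes was written with the files in view. Beside Kit and Ly6a, named genes are the 10 highest and 10 lowest ratios in each HSC-gate split (5 and 5 in MPP4), ranked by the smaller size of both pools among genes with at least 200 UMIs. Mitochondrial, immunoglobulin, predicted, Y-linked genes and Xist were left out. Up to 4 members of a list with the most UMIs are also named. Other members named for a list of 5 or fewer calls, Cldn5, Cd59a, Dpm1, Psmb9 and Cd79b among them, Ctsg and the genes of cells with few cycle RNAs were picked after values were seen. A few genes that this rule names are not reported here. Alternatives cover cell filters, sex, tag scaling, thinning to 5000 UMIs, gate margins and split sizes. Those on immunoglobulin-rich cells, cycle RNAs, sex within gates and splits, isotype scaling of gate ratios and scaling without CD117 were added after seeing the data. Python 3.11.15, numpy 2.4.6, scipy 1.17.1, pandas 2.3.3 and scikit-learn 1.9.0 were used, and the split calls were checked on simulated counts.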

Additional observations from a re-analysis of the deposited data

Results flagged for a closer look

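For 3 readouts the chelator to control ratio had opposite signs in the cells of either sex, and the difference between the sexes was not tested, since there is 1 pool per condition. Kit RNA had a log2 ratio of 0.086 in cells with Xist and of -0.030 in cells with Y-linked transcripts. Ly6a RNA had 0.096 and -0.021 with all cells kept. Without immunoglobulin-rich cells its control and chelator levels were nearer, at 149 and 152 CPM in cells with Xist. In those with Y-linked transcripts they were then 124 and 122 CPM. The Sca-1 tag per surface-tag UMIs had -0.040 and 0.15. The CD117 tag was lower in both, by -0.14 and -0.11. The number of mice of either sex behind each pool is not given in the sources used here.

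Within gates, too, Xist-positive cells (given first) and those with Y-linked transcripts had opposite signs for several readouts, and these differences were not tested. Kit RNA had log2 ratios of 0.11 and -0.088 in the HSC gate, -0.13 and 0.26 in MPP1, -0.17 and 0.14 in MPP2, -0.23 and 0.080 in MPP3, and 0.099 and -0.10 in MPP4. Ly6a RNA had -0.13 and 0.094 in the HSC gate, 0.38 and -0.13 in MPP3, and 0.22 and -0.075 in MPP4. In MPP3 a single immunoglobulin-rich cell held 201 of the 441 Ly6a UMIs of Xist-positive chelator cells, and the ratio without such cells was not tested. The CD117 tag had 0.034 and -0.077 in MPP1, and -0.17 and 0.051 in MPP2. The Sca-1 tag had -0.23 and 0.20 in the HSC gate, -0.44 and 0.029 in MPP2, and -0.27 and 0.18 in MPP3. These gate values were added after seeing the data.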

How the results depend on the processing

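No paired analysis was possible because there was 1 pool per condition and no replicate number that pairs samples. For the same reason no replicate could be left out. With 1 pool each, values were compared with counting error alone, which for the CD117 tag is so small that shifts in the third decimal exceed it. The cause of the shifts below was not tested. Counts of genes in the HSC gate were 529 of 7586 tested for CD117 and 926 of 7608 for Sca-1. With cells of 3 or more cycle UMIs left out they were 14 of 3070 and 30 of 3133. In cells with Xist alone they were 154 of 2670 and 360 of 2663. In cells with Y-linked transcripts alone they were 257 of 4988 and 509 of 5049. Fewer cells and genes were tested in each of these settings. No gene called both there and among all cells of the gate had opposite directions. Genes called there alone were not checked for direction.

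By sex, chelator over control log2 ratios in cells with Xist and with Y-linked transcripts were 0.086 and -0.030 for Kit RNA, 0.096 and -0.021 for Ly6a RNA, -0.14 and -0.11 for the CD117 tag and -0.040 and 0.15 for the Sca-1 tag. With both sexes weighted equally they were 0.038 for Ly6a RNA, -0.13 for CD117 and 0.053 for Sca-1. HSC over MPP4 ratios in cells with Xist were 0.54 and 0.55 (control and chelator pool) for Kit RNA, 1.04 and 0.68 for Ly6a RNA, -0.48 and -0.30 for CD117 and 0.83 and 0.44 for Sca-1. In cells with Y-linked transcripts they were 0.58 in the control pool for Ly6a RNA, -0.21 and -0.32 for CD117 and 0.18 and 0.20 for Sca-1.

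By tag scale, chelator over control was -0.19 per isotype UMI and 0.049 per cell for CD117, and -0.064 and 0.17 for Sca-1, which was -0.032 with CD117 left out of the total. As a mean over cells of each cell's share they were -0.11 and -0.017. HSC over MPP4 per cell was 0.53 and 0.55 for CD117 and 1.24 and 1.15 for Sca-1, per isotype UMI -0.32 and -0.36 for CD117, and with CD117 left out of the total 0.29 and 0.17 for Sca-1. The Spearman correlation of Kit with CD117 was 0.090 and 0.084 with the tag as a share, 0.24 and 0.27 with plain UMIs, 0.12 and 0.14 thinned, and 0.23 and 0.23 given both depths. That of Ly6a with Sca-1 was 0.49 and 0.48 thinned and 0.53 and 0.54 given both depths.

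By gate and filter, leaving out cells within 0.25 of a threshold gave HSC over MPP4 ratios of 0.69 and 0.71 for Kit RNA, 0.96 in the control pool for Ly6a RNA, -0.29 and -0.32 for CD117 and 0.21 in the chelator pool for Sca-1. Thresholds set in each pool gave -0.29 and -0.34 for CD117, no cell filter -0.28 and the stricter filter -0.30 in the control pool. Chelator over control for CD117 was -0.11 without a cell filter, -0.11 without cells of both sex markers and -0.12 without immunoglobulin-rich cells, and for Ly6a RNA -0.083 without the latter.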

Other observations

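Other surface tags that differed between tag tertiles of the HSC gate were CD62P, CD49b, CD38, CD51 and CD274, picked after their values were seen. Median CD38 UMIs were 38 in the lower and 18 in the upper CD117 tertile of the control pool, and 49 and 21 in the chelator pool. Median CD49b, an integrin of cells that have left the most dormant state, was 16 and 45, and 26 and 55. Along the Sca-1 tag CD49b went the other way, with 44 and 16, and 52.5 and 26. CD274, the checkpoint ligand PD-L1 that interferon induces, had medians of 25 and 45, and 25 and 44, between Sca-1 tertiles, and 40 and 26, and 40 and 27, between CD117 tertiles. CD150, which is used by the gate, had 183 and 139, and 208 and 145.5, between CD117 tertiles.

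Between pools, genes of the Kit signalling list had a median log2 ratio of -0.02, negative regulators of -0.0002, factors at the Kit locus of -0.04, interferon-response genes of 0.005 and G2 and M phase genes of 0.10. The median over the 9840 genes with 1000 or more UMIs was -0.0035. The lists with medians farthest from 0 were mast cells and basophils, a list that includes Kit, with -0.62 over 10 measured genes, and the erythroid list, with -0.57 over 19.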
